A study of Oryctolagus cuniculus with 34 samples.

Results

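Protein ubiquitination was followed at the transcript level in rabbit supraspinatus muscle after rotator cuff repair, through 75 genes of the 12937 tested. They were chosen by name: the human ortholog symbol had to belong to the ubiquitin-activating (UBA), conjugating (UBE2) or ligase families (cullins, F-box, Kelch-like, TRIM, RNF, MARCHF, UBE4, HECW, HERC) or to the deubiquitinating families USP and OTUD, and CPM (reads counted on a gene, scaled to the library total) had to exceed 1 in at least 1 library. ASB10 and UCHL1 carry names of this kind and were left out. Of the 75 genes, 44 took their symbol from the study's table of orthologs and 31 only from its table of gene modules. That table lists genes that a network of the repair libraries had placed in modules, so those 31 were partly selected on expression. Symbols were at hand for 3310 of the 12937 genes, and the muscle ligases TRIM63 and FBXO32 were not among them and are not analysed here.

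Supraspinatus muscle was taken from both shoulders of 17 female New Zealand White rabbits, and RNA of the posterior lateral region was sequenced in 34 libraries. The study's methods give the age of the rabbits as about 6 months, and its discussion gives a higher age at the end of the experiment. On the left the tendon had been cut, left detached for 8 weeks and then sutured back (repair). The right shoulder served as control, which the study's methods call unoperated, whereas the labels speak of a sham cut of the skin. The comparison at 1 week after repair drew on 4 rabbits and that at 2 weeks on 5, each with a repair and a control library. That at 4 weeks drew on 4 rabbits, and that at 8 weeks on 3 repair and 4 control libraries. No group had tenotomy without repair, so every repair library also carries the 8 weeks of detachment.

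Ubiquitin is attached to proteins by a relay of enzymes: an activating enzyme (E1) passes it to a conjugating enzyme (E2), and a ligase (E3) brings the E2 to the substrate. Cullins are scaffolds of modular ligases whose substrates are picked by adaptors, F-box proteins on CUL1 and Kelch-like proteins mostly on CUL3, while RING and TRIM ligases bind the E2 directly and HECT ligases carry ubiquitin on themselves. Deubiquitinating enzymes remove it. In skeletal muscle the system feeds the proteasome during atrophy and remodelling, and it also marks proteins for signalling, DNA repair and membrane traffic.

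The 75 genes comprised 1 E1 (UBA2, which activates the ubiquitin-like protein SUMO), 7 E2 genes (UBE2B, UBE2D1, UBE2J2, UBE2L3, UBE2Q1, UBE2V1 and UBE2Z), 3 cullins (CUL1, CUL7 and CUL9), 8 F-box genes, 9 Kelch-like genes, 11 TRIM genes, 19 RING genes of the RNF and MARCHF families, the U-box ligase UBE4A, 2 HECT genes (HECW2 and HERC3) and 14 deubiquitinating genes (OTUD6B and 13 USP genes). Classes were assigned by gene name alone, and whether each member is an active enzyme of its class was not checked. CPM exceeded 1 in all 33 libraries for 66 of the 75 genes. The median CPM of a gene over the libraries ran from 0.655 to 307. CPM is not divided by transcript length, so levels were compared between libraries and never between genes.

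The libraries held from 9220035 to 28395188 counts each, with a median of 19343431 at 1 and 8 weeks and 10625163 at 2 and 4 weeks, which also carry different series of library titles. Levels at 1 and 8 weeks and those at 2 and 4 weeks can therefore not be told apart from the library series, and comparisons were made between shoulders of the same time point. The left library of rabbit 3 (8 weeks) was left out here. It held 8756033 counts, 61 of the 75 genes lay below and 7 above the range of the other 7 libraries of that week, and 2 had no count in it. In all, 90.7% of the 75 genes and 83% of all genes lay outside that range.

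The tissue is labelled as muscle, and it carried the muscle fibre markers TNNT3, ATP2A1, MYOM2 and DES. Their summed level was 6367 to 38607 CPM in repair and 37867 to 49241 CPM in control at 1 week, lower in repair in 4 of 4 rabbits, with rabbit 6 at 6367 against 39745 CPM. At 2 weeks it was 9157 to 41586 against 19162 to 45403 CPM. Markers of other cells moved with repair. The summed level of 14 fibroblast and matrix genes was 6772 to 22505 CPM in repair and 2010 to 2527 CPM in control at 1 week, and 905 to 71808 against 1088 to 1860 CPM at 2 weeks. Of these 14 genes, 1 passed the test at 1 week, 7 at 2 weeks and 13 over all time points, each of them higher in repair. All 3 adipocyte markers were higher at 1 week, with a summed level of 299 to 939 CPM against 128 to 218 CPM. Of 10 macrophage markers 1 was higher at 1 week and 0 passed at 2 weeks, although their sum reached 604 CPM in 1 repair library of 2 weeks against at most 22.5 CPM in control. Of 6 endothelial markers 2 were higher at 2 weeks. Among the muscle fibre markers 1 of 4 was lower at 1 week (MYOM2) and 1 of 4 at 2 weeks (DES), and of the immature fibre markers MYH8 and MYF6 the first was higher at 1 week. Of 39 markers 0 were at 0 in every library, and THRSP, CD163, C1QB and MPEG1 had no count in 1 or 2 libraries each. The part of these cells in the changes described next was not tested, and in bulk muscle fewer cells of a type and less RNA per cell cannot be told apart.

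**Figure D1:**
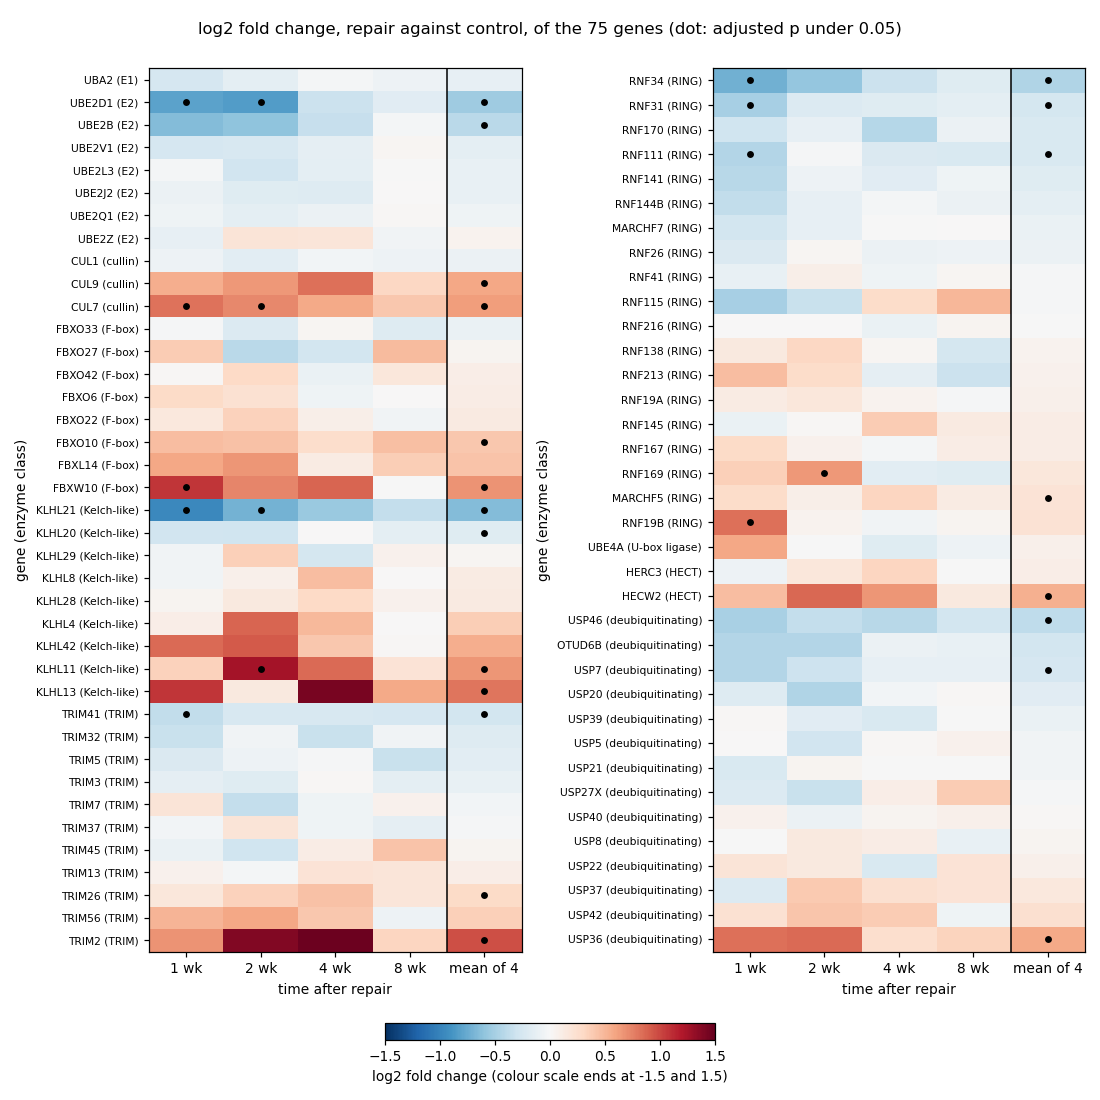
Log2 fold change of repair against control for each of the 75 genes (rows, grouped by enzyme class) at 1, 2, 4 and 8 weeks and as the mean of the 4 (columns), with red for higher and blue for lower in repair and a dot where the adjusted p was under 0.05. Dots mark 9 genes in the column of 1 week, 5 in that of 2 weeks and 21 for the mean, and the columns of 4 and 8 weeks hold 0.

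At 1 week after repair 9 of the 75 genes (12%) passed the test, 6 lower and 3 higher in repair, against 13.7% of all genes tested (6.88% lower and 6.81% higher). The share was near that of all genes. The genes that fell were the adaptor KLHL21, the E2 gene UBE2D1, the RING ligases RNF34, RNF31 and RNF111, and TRIM41, and those that rose were the F-box gene FBXW10, the ligase RNF19B and the scaffold CUL7. The median log2 fold change (log2FC) was -0.02 over the 75 genes and 0.05 over all genes.

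KLHL21, a CUL3 adaptor known from cell division, fell at 1 week. Its CPM in repair was 38.3, 28.3, 22.9 and 36.9 in rabbits 5, 6, 7 and 8, and 68.3, 61.3, 54.4 and 58.4 in their controls. The groups did not overlap, and log2FC was -0.96 (SE 0.26, adjusted p = 0.0184). UBE2D1, an E2 that serves many RING ligases, had 21.7, 18.7, 24.4 and 24.02 CPM in repair and 31.997, 32.4, 47.7 and 44.9 CPM in control. Each repair library lay below each control, with log2FC -0.80 (SE 0.27, adjusted p = 0.0492), a value close to the threshold that was over it when any 1 of the 8 libraries of this week was left out.

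RNF34, a RING ligase that also acts on caspases, stood at 19.2, 13.7, 14.5 and 18.4 CPM in repair and at 31.4, 24.3, 26.4 and 24.99 CPM in control. The groups did not overlap (log2FC -0.72, SE 0.23, adjusted p = 0.0369). RNF31, the catalytic subunit of the complex that builds linear ubiquitin chains, stood at 33.8, 40.8, 30.1 and 35.3 CPM against 51.8, 52.7, 49.04 and 43.8 CPM. Again each repair library was below each control (log2FC -0.50, SE 0.15, adjusted p = 0.0279). RNF111, also known as Arkadia and an enhancer of TGF-beta signalling through the removal of its inhibitors, had 14.2, 14.997, 14.3 and 15.3 CPM in repair and 20.4, 21.01, 20.3 and 18.0 CPM in control. Its libraries agreed closely within each side, and the fall of -0.44 (SE 0.11, adjusted p = 0.0138) was the only one of the 6 that passed in each of the 8 fits with 1 library left out. TRIM41, a TRIM ligase of protein kinase C, averaged 20.2 ± 2.6 CPM in repair and 25.9 ± 2.1 CPM in control (SD, n = 4 and 4; log2FC -0.37, SE 0.12, adjusted p = 0.0446). Its groups did not overlap, but in rabbit 8 both shoulders lay at 22.8 CPM.

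Among the rises, FBXW10, an F-box gene with WD repeats, had 2.25, 4.62, 3.11 and 2.52 CPM in repair and 1.496, 1.996, 1.35 and 1.07 CPM in control. No control library reached the lowest repair library, and log2FC was 1.07 (SE 0.32, adjusted p = 0.0276). FBXW10 alone of the 75 combined an adjusted p under 0.05 with an absolute log2FC over 1 at this time. RNF19B, a RING-between-RING ligase first described in natural killer cells, stood at 39.4, 19.9, 23.3 and 26.3 CPM against 14.0, 16.6, 14.3 and 14.5 CPM. The groups were apart, rabbit 5 was the highest, and log2FC was 0.83 (SE 0.22, adjusted p = 0.0167). CUL7, the scaffold that pairs with FBXW8 and is mutated in a short-stature syndrome, had 41.2, 49.8, 44.9997 and 26.2 CPM in repair and 21.05, 25.8, 23.4 and 19.4 CPM in control. Its repair library of rabbit 8 lay just above the highest control (log2FC 0.82, SE 0.24, adjusted p = 0.0248). With 1 library of this week left out in turn, FBXW10 and CUL7 each passed in 3 of 8 fits and RNF19B in 6 of 8.

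The repair and control libraries of 1 week did not overlap for 20 of the 75 genes, 13 lower and 7 higher in repair, while 13.3% and 16.1% of all genes were apart in these directions (29.4% together). Besides the 9 genes above these included UBE2B, an E2 of the N-end rule pathway that is abundant in muscle, with 196 ± 19 CPM in repair and 309 ± 48 CPM in control (log2FC -0.64, SE 0.25, adjusted p = 0.0732), and USP7, the deubiquitinating enzyme of MDM2, with 112 ± 9.4 against 153 ± 8.3 CPM (log2FC -0.44, SE 0.15, adjusted p = 0.0532; SD, n = 4 and 4 for both). Neither passed this test, but both did with the estimated rabbit correlation (adjusted p = 0.0399 and 0.0277) and by DESeq2 (0.0242 and 0.016). Those settings called 22.4% and 17.3% of all genes. By edgeR and with a block by rabbit USP7 passed (adjusted p = 0.0433 and 0.0469) and UBE2B did not. USP36, a nucleolar deubiquitinating enzyme, was higher in all 4 rabbits at 30.4, 34.5, 39.2 and 31.96 CPM against 18.8, 22.3, 17.3 and 18.2 CPM, with adjusted p = 0.0699.

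The count of 1 week moved with the libraries and the model. It was 0 with the removed library of rabbit 3 put back, when 2.28% of all genes passed, and 2 without the control of rabbit 5 or either library of rabbit 7 (4.58% to 5.27% of all genes). It was 5 without either library of rabbit 6 or the control of rabbit 8 (6.85% to 8.76% of all genes). With the rabbit as a block, so that each left shoulder was set against its own right shoulder, 18 genes passed (9 lower and 9 higher, against 26.3% of all genes), among them USP7 (adjusted p = 0.0469), USP46 (0.0353), USP36 (0.0274), KLHL13 (0.0180) and UBE4A (0.0310).

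**Figure D2:**
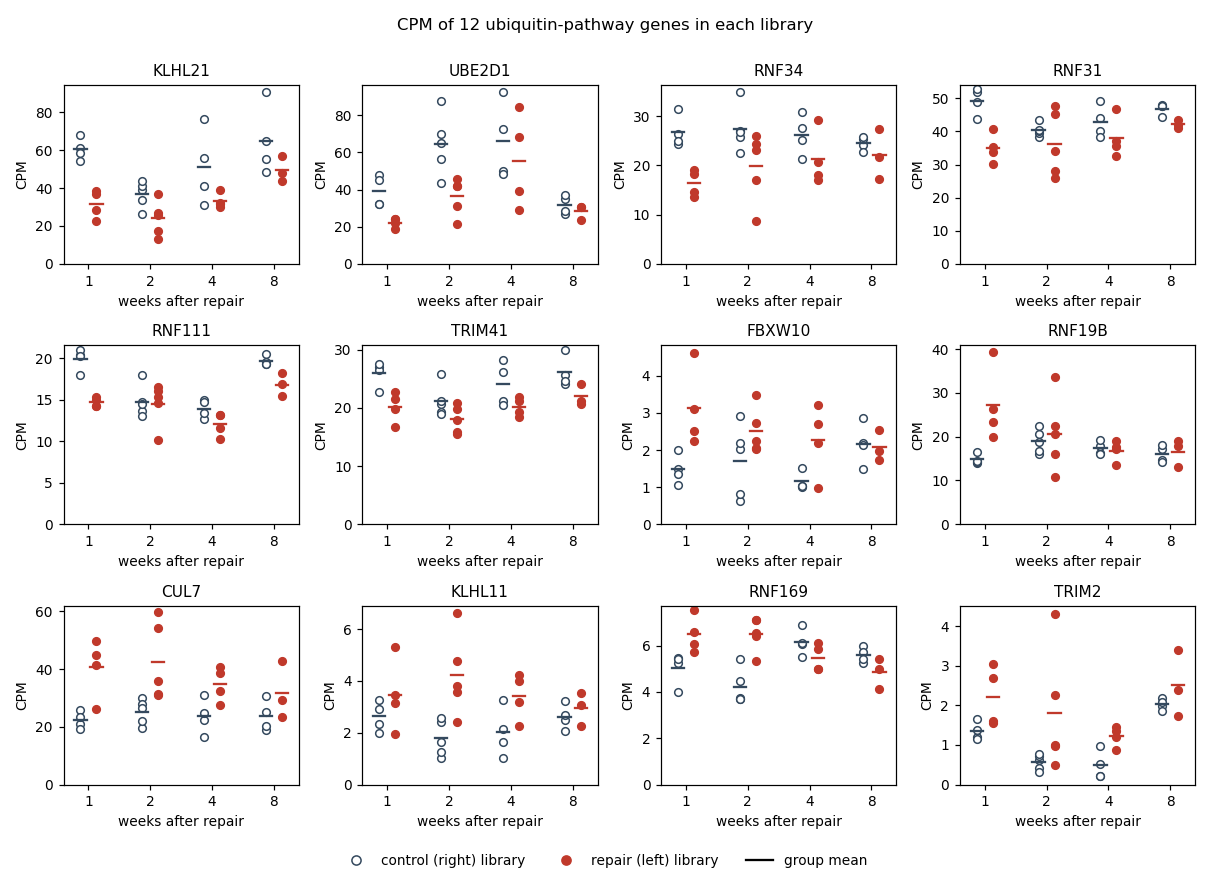
CPM (vertical axes, from 0) of 12 genes in each library at 1, 2, 4 and 8 weeks after repair, with open symbols for control, filled symbols for repair and a bar at each group's mean. At 1 week the libraries of KLHL21, UBE2D1, RNF34, RNF31, RNF111, TRIM41, FBXW10, RNF19B and CUL7 do not overlap between the sides, and at 8 weeks 0 of the 12 passes the test.

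At 2 weeks 5 of the 75 genes (6.67%) passed, 3 higher and 2 lower, against 15.9% of all genes (7.95% higher and 7.92% lower). KLHL11, RNF169 and CUL7 rose, and UBE2D1 and KLHL21 fell, so 3 genes were called at both 1 and 2 weeks and 11 at either. The shares of all genes called at both weeks or at either were not counted. The median log2FC of the 75 genes was 0.02, beside 0.06 for all genes.

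CUL7 stood at 59.8, 30.9, 31.4, 36.0 and 54.4 CPM in the repair libraries of rabbits 59, 60, 61, 62 and 64, and at 29.8, 19.5, 27.8, 22.1 and 26.5 CPM in control. It was the one rise whose groups did not overlap, among 3 non-overlapping genes of 75, 1 higher and 2 lower (4.1% and 3.73% of all genes, 7.84% together), and log2FC was 0.72 (SE 0.21, adjusted p = 0.0280). KLHL11, another cullin adaptor of the Kelch-like family, had 4.76, 2.42, 3.79, 3.56 and 6.63 CPM against 1.04, 1.24, 2.43, 2.57 and 1.63 CPM. It was higher in 5 of 5 rabbits, the lowest repair library lay just under the 2 highest controls, and log2FC was 1.25 (SE 0.35, adjusted p = 0.0235). RNF169, which binds ubiquitin-marked chromatin at DNA breaks, had 7.11, 6.57, 5.35, 6.44 and 7.12 CPM in repair and 4.47, 3.73, 3.69, 3.70 and 5.45 CPM in control. Only the control of rabbit 64 lay above the lowest repair library, and the rise of 0.65 (SE 0.15, adjusted p = 0.00949) passed in each of the 10 fits with 1 library left out.

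UBE2D1 had 21.4, 41.96, 41.8, 31.2 and 45.5 CPM in repair and 87.6, 56.7, 43.7, 64.8 and 69.7 CPM in control. It was lower in 5 of 5 rabbits, with an overlap between rabbits 64 and 61 only, and log2FC was -0.84 (SE 0.24, adjusted p = 0.0254). KLHL21 had 13.1, 37.1, 26.7, 17.4 and 25.7 CPM against 26.4, 39.2, 40.97, 33.9 and 43.6 CPM. It too was lower in 5 of 5 rabbits, and the groups overlapped (log2FC -0.71, SE 0.23, adjusted p = 0.0400).

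Rabbit 59 stood apart at 2 weeks. Over the 75 genes the median size of the log2 ratio between its shoulders was 0.546, against 0.191 to 0.368 in the other 4 rabbits of that week, and over all genes it was 0.819 against 0.271 to 0.451. Its repair library was the highest of its group for 27 of the 75 genes and the lowest for another 27. Together these were 72% of the 75, beside 76.1% of all genes that were highest or lowest in it. The same library held the 71808 CPM of fibroblast and matrix markers and the 604 CPM of macrophage markers given above, and 9157 CPM of muscle fibre markers against 14419 to 41586 CPM in the other repair libraries. USP36 stood at 77.0 CPM in it and at 14.99 to 38.3 CPM in the other 4, UBE2B at 110 CPM against 264 to 391 CPM, and RNF34 at 8.63 CPM against 17.1 to 26.0 CPM. Whether tissue composition had a part in these values was not tested. Without this library 1 of the 75 genes passed at 2 weeks (RNF169), as did 2.65% of all genes.

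Other libraries moved the count of 2 weeks as well: it was 14 without the repair library of rabbit 60 (25.7% of all genes), 12 without that of rabbit 61 or 64 (21.3% and 26.7%), 3 without that of rabbit 62 or the control of rabbit 59 (5.9% and 11%), and 2 without the control of rabbit 60 or 62 (6.89% and 7.6%). With the rabbit as a block 12 genes passed (8 higher and 4 lower, against 31.6% of all genes), the additional ones being FBXL14, FBXO10, HECW2, TRIM2, USP36, RNF34 and UBE2B. With all 34 libraries 1 gene passed, against 3.12% of all genes.

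**Figure D3:**
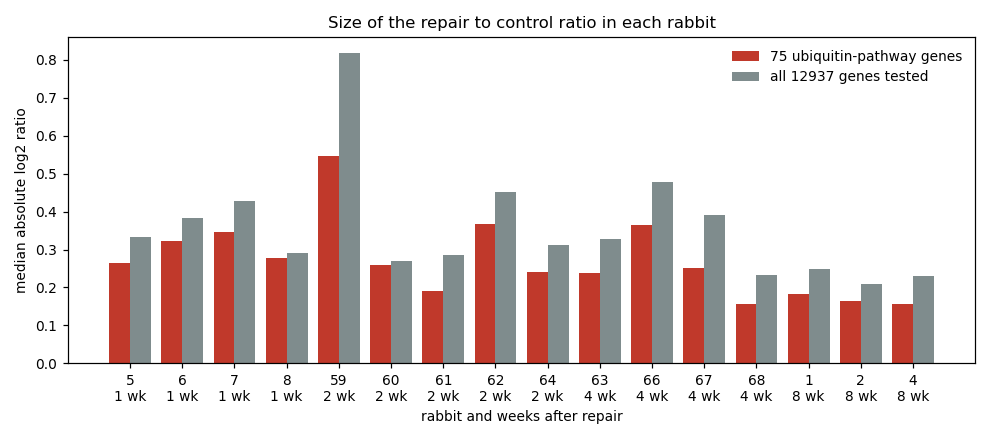
Median absolute log2 ratio of CPM + 0.5 between the repair and control library of each of 16 rabbits (bars from 0), for the 75 genes in red and all 12937 genes in grey. Rabbit 59 at 2 weeks is the highest for both at 0.546 and 0.819, and the 3 rabbits of 8 weeks lie at 0.157 to 0.182 for the 75 genes.

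At 4 weeks 0 of the 75 genes passed limma-voom, against 0.124% of all genes (0.0773% higher and 0.0464% lower). Of the 75, 10 had an unadjusted p under 0.05 in limma, as did 2058 of the 12937 genes tested. By edgeR 0 of the 75 passed, beside 2.52% of all genes, and by DESeq2 1 passed, beside 5.22% of all genes. Groups did not overlap for 2 higher and 2 lower genes of the 75, beside 5.19% and 3.93% of all genes (9.11% together). The lowest p-values belonged to TRIM2, KLHL13 and CUL9, and all were too high after adjustment. TRIM2, a ligase of neurofilament light chain, stood at 1.20, 1.36, 1.45 and 0.88 CPM in the repair libraries of rabbits 63, 66, 67 and 68 and at 0.983, 0.224, 0.207 and 0.522 CPM in control. It was higher in 4 of 4 rabbits with an overlap between rabbits 68 and 63 (log2FC 1.47, SE 0.60, adjusted p = 0.236). KLHL13, a CUL3 adaptor of mitotic kinases, stood at 7.90, 13.1, 12.6 and 9.68 CPM against 3.71, 1.01, 4.97 and 11.8 CPM. It was higher in 3 of 4 rabbits, and rabbit 68 went the other way (log2FC 1.43, SE 0.59, adjusted p = 0.236). CUL9, a close relative of CUL7, stood at 16.4, 21.7, 35.1 and 8.15 CPM against 11.8, 8.52, 12.5 and 8.91 CPM. Rabbit 68 again had no rise (log2FC 0.83, SE 0.34, adjusted p = 0.237), and without its repair library CUL9 passed at adjusted p = 0.0322.

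At 8 weeks 0 of the 75 genes passed, against 0.00773% of all genes, and edgeR and DESeq2 called 0 as well. An unadjusted p under 0.05 in limma was found for 397 of the 12937 genes tested and for 1 of the 75. That gene was FBXO27, an F-box gene for glycoproteins, with 6.98, 5.28 and 6.84 CPM in the repair libraries of rabbits 1, 2 and 4 and 4.64, 5.37, 3.46 and 4.91 CPM in the controls of rabbits 1 to 4. The groups overlapped (log2FC 0.47, SE 0.22, adjusted p = 0.999). RNF115, a RING ligase, was at 35.4, 25.001 and 19.5 CPM against 16.3, 22.5, 18.7 and 15.9 CPM, higher in 3 of 3 rabbits with overlapping groups (log2FC 0.50, SE 0.25, adjusted p = 0.999). TRIM41 was at 24.1, 21.3 and 20.7 CPM against 25.7, 24.2, 24.7 and 30.0 CPM, with the groups just apart (log2FC -0.25, SE 0.13, adjusted p = 0.999). No gene of the 75 differed by more than 0.57 in log2FC at 8 weeks, and 6 had groups that did not overlap, 3 higher and 3 lower, beside 4.24% and 3.32% of all genes (7.56% together).

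No gene of the 75 passed the test of a difference in effect between 1 and 8, 2 and 4 or 1 and 2 weeks by limma, edgeR or DESeq2. The fall in calls among the 75 from 1 to 8 weeks therefore came with no gene of the 75 whose effect was shown to differ between these weeks. At an unadjusted p under 0.05 in limma the counts were 4, 1 and 4 of 75, beside 683, 359 and 694 of the 12937 genes tested. RNF115 had a log2FC of -0.49 at 1 week and 0.50 at 8 weeks, a difference of -0.99 (SE 0.35; limma, adjusted p = 0.827). RNF169 had the lowest p between 2 and 4 weeks, with log2FC 0.65 against -0.15 (difference 0.80, SE 0.21; limma, adjusted p = 1.0). FBXO27 had it between 1 and 2 weeks, with log2FC 0.38 against -0.41 (difference 0.79, SE 0.29; limma, adjusted p = 0.761).

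Over all time points, as the mean of the 4 contrasts and hence from the same libraries, 21 of the 75 genes (28%) passed, 11 higher and 10 lower, against 40.1% of all genes (22.4% higher and 17.7% lower). This share lay below that of all genes. By source of the symbol, 5 of the 44 genes with a listed ortholog were higher and 6 lower, and 6 of the 31 genes from the network modules were higher and 4 lower. Of the 21, 9 were lower and 9 were higher at each of the 4 time points. The 21 were picked on the mean of these same 4 contrasts, which itself favours a shared direction. The matching share among all genes called was not counted. Leaving out 1 library at a time gave 19 to 26 genes, and the block by rabbit gave 22 (12 higher and 10 lower, against 46.4%).

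Of the cullin ligases, both CUL7 and CUL9 rose and CUL1, the scaffold for F-box adaptors, did not pass. That is 66.7% of 3 genes, beside 40.1% of all genes (22.4% higher and 17.7% lower). CUL7 was higher in 15 of 16 rabbits, with a log2 ratio of CPM + 0.5 from -0.39 in rabbit 1 to 1.21 in rabbit 66 (log2FC 0.63, SE 0.12, adjusted p = 0.000346). CUL9 was higher in 13 of 16 (log2FC 0.58, SE 0.15, adjusted p = 0.00463). CUL1 was lower in 10 of 16 with log2FC -0.09 (SE 0.08, adjusted p = 0.37), and its repair mean at 1 week was 104 ± 22 CPM beside 109 ± 5.6 CPM in control (SD, n = 4 and 4).

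Of the 8 F-box genes 2 rose and 0 fell (25% called, beside 40.1% of all genes, 22.4% higher and 17.7% lower). FBXW10 was higher in 13 of 16 rabbits (log2FC 0.67, SE 0.19, adjusted p = 0.00694), although at 8 weeks its fitted log2FC was -0.0021. FBXO10, whose ligase takes BCL2 as a substrate, was higher in 15 of 16, with a log2FC from 0.27 to 0.46 over the 4 time points and 0.40 overall (SE 0.11, adjusted p = 0.00696). Of the 9 Kelch-like genes 2 rose and 2 fell (44.4% called, beside 40.1% of all genes). KLHL13 (log2FC 0.80, SE 0.26, adjusted p = 0.0150) was higher in 12 of 16 rabbits, ranging from -1.15 in rabbit 60 to 3.18 in rabbit 66, and KLHL11 (0.66, SE 0.17, adjusted p = 0.00431) in 13 of 16. KLHL21 was lower in 15 of 16, with rabbit 68 at 0.03 and the others down to -1.35 (log2FC -0.65, SE 0.13, adjusted p = 0.000553). KLHL20, an adaptor for death-associated protein kinase, was lower in 13 of 16 by a small amount (log2FC -0.18, SE 0.06, adjusted p = 0.0257).

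Among the 7 E2 genes 2 fell and 0 rose (28.6% called, beside 40.1% of all genes, 17.7% lower and 22.4% higher). A log2FC below 0 was found for 6 of the 7, while 54.1% of all genes had a log2FC above 0. UBE2D1 was lower in 14 of 16 rabbits, from -2.01 in rabbit 59 to 0.21 in rabbit 68 (log2FC -0.54, SE 0.14, adjusted p = 0.00353). UBE2B was lower in 14 of 16, from -1.79 in rabbit 59 to 0.24 in rabbit 1 (log2FC -0.41, SE 0.12, adjusted p = 0.00957). UBE2L3, an E2 for HECT and RING-between-RING ligases, did not pass (log2FC -0.12, SE 0.07, adjusted p = 0.19), nor did the E1 gene UBA2 (log2FC -0.13, SE 0.07).

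Of the 19 RING genes 3 fell and 1 rose (21.1% called, beside 40.1% of all genes). RNF34 was lower in 14 of 16 rabbits (log2FC -0.45, SE 0.12, adjusted p = 0.00377), RNF31 in 13 of 16 (-0.26, SE 0.07, adjusted p = 0.00720) and RNF111 in 12 of 16 (-0.22, SE 0.06, adjusted p = 0.00505). MARCHF5, a ligase of the outer mitochondrial membrane, rose by 0.20 (SE 0.07, adjusted p = 0.0315) and was higher in 11 of 16. RNF213, a large ligase linked to moyamoya disease, did not pass: its log2FC ran over 0.46, 0.28, -0.14 and -0.32 through the 4 time points in order, with 0.07 as the mean (SE 0.16).

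Of the 11 TRIM genes 2 rose and 1 fell (27.3% called, beside 40.1% of all genes). TRIM2 was higher in 14 of 16 rabbits, up to 2.10 in rabbit 59, with log2FC 0.97 (SE 0.23, adjusted p = 0.00235), at levels of 0.21 to 4.32 CPM. TRIM26 was higher in 11 of 16 (log2FC 0.28, SE 0.10, adjusted p = 0.0304) and did not pass with the block (adjusted p = 0.0664). TRIM41 was lower in 16 of 16, from -0.70 in rabbit 7 to -0.0015 in rabbit 8 (log2FC -0.28, SE 0.06, adjusted p = 0.00173), and its fall ran from -0.24 to -0.37 over the 4 time points. TRIM32, a ligase mutated in a limb-girdle muscular dystrophy, was lower in 11 of 16 and did not pass (log2FC -0.19, SE 0.08, adjusted p = 0.062), although it did with the estimated rabbit correlation (adjusted p = 0.0367) and with sample quality weights (0.0227). Its mean at 1 week was 7.96 ± 1.5 CPM in repair and 9.85 ± 0.87 CPM in control (SD, n = 4 and 4). Of the HECT genes, HECW2, a relative of NEDD4, rose (log2FC 0.53, SE 0.18, adjusted p = 0.0212; higher in 14 of 16) and HERC3 did not pass (log2FC 0.10; 0.20 with quality weights, adjusted p = 0.0402).

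Of the 14 deubiquitinating genes 2 fell and 1 rose (21.4% called, beside 40.1% of all genes). USP46, which works with WD-repeat partners and regulates glutamate receptors, was lower in 14 of 16 rabbits (log2FC -0.38, SE 0.09, adjusted p = 0.00182). Its repair and control means were 24.3 ± 2.1 and 34.03 ± 3.4 CPM after 1 week, 25.3 ± 6.4 and 31.8 ± 6.2 CPM after 2 weeks, 24.5 ± 1.5 and 32.6 ± 3.0 CPM after 4 weeks and 30.3 ± 10.2 and 35.3 ± 3.1 CPM after 8 weeks (SD, n = 3 to 5 a side). The means of repair were thus the lower ones throughout, with the widest spread in the last week. USP7, whose values of 1 week are given above, was lower in 12 of 16 (log2FC -0.25, SE 0.07, adjusted p = 0.0100). USP36 was higher in 13 of 16, from -0.11 in rabbit 68 to 2.29 in rabbit 59 (log2FC 0.56, SE 0.16, adjusted p = 0.00833). The other 11 did not pass, with a log2FC between -0.27 (OTUD6B) and 0.24 (USP42).

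The remaining 54 genes did not pass over all time points in the fit without a block. Closest to the threshold among those that leaned higher were FBXL14, an F-box gene, at log2FC 0.43 (SE 0.19, adjusted p = 0.0636, higher in 12 of 16 rabbits), KLHL42 at 0.55 (SE 0.24, adjusted p = 0.0642, higher in 11 of 16) and RNF169 at 0.17 (SE 0.07, adjusted p = 0.0656). KLHL42 was low throughout, with means from 0.558 to 1.70 CPM per group, and its widest ratio of 2.22 was that of rabbit 59. Among all 75 genes the fitted difference was below 0 at each of the 4 time points for 18 and above 0 at each for 14. The matching shares of all genes were not counted. FBXL14 passed with the rabbit as a block (adjusted p = 0.00682), with the estimated rabbit correlation (0.0355), by edgeR (0.0352) and by DESeq2 (0.0291). KLHL42 passed with the rabbit correlation (0.0461), by edgeR (0.0449) and by DESeq2 (0.0452), and RNF169 with the rabbit correlation (0.0405). TRIM56 passed with the block (0.0335) and with sample quality weights (0.0259). FBXL14, KLHL42, RNF169 and TRIM56 were named here after their values were seen.

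**Figure D4:**
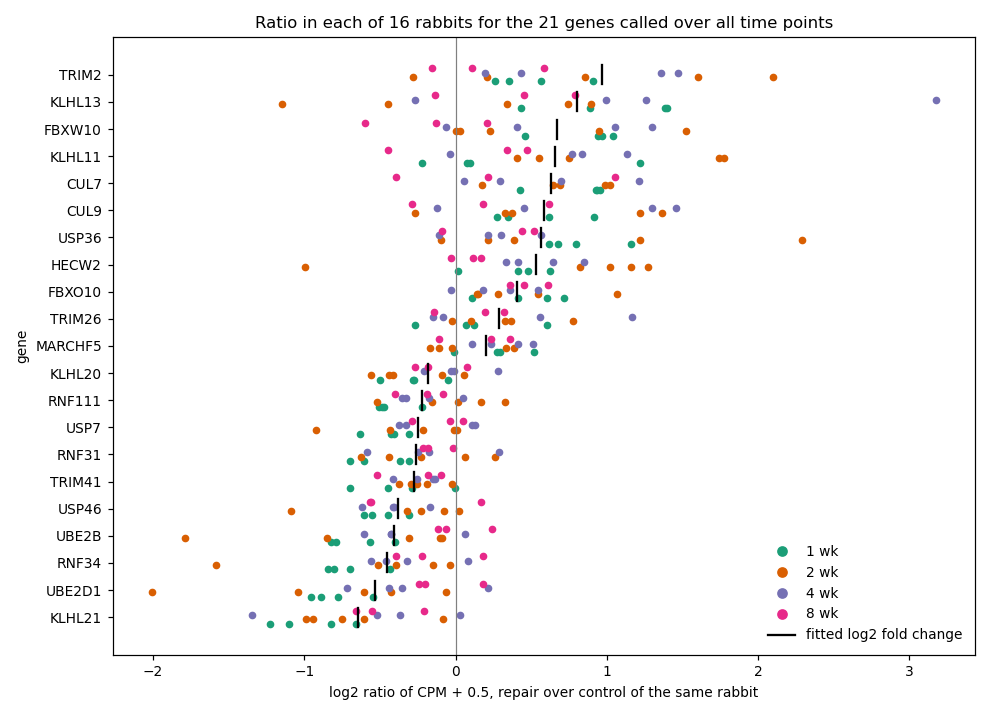
Log2 ratio of CPM + 0.5 of repair over control in each of 16 rabbits (points, coloured by time after repair) for the 21 genes called over all time points (rows), with a bar at the fitted log2 fold change. TRIM41 lies below 0 in all 16 rabbits, KLHL21 in 15, and CUL7 above 0 in 15, while the far points of UBE2D1, UBE2B, RNF34, USP36 and TRIM2 belong to rabbit 59.

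Other genes of the pathway, 66 in all, were looked up from a list of cullin partners, further ligases, and further deubiquitinating or ubiquitin-binding factors. Their symbols came from the same ortholog and module sources as those of the 75 genes. Any found only in the modules were thus partly selected on expression, and their number was not counted. At 1 week 2 of the 66 were higher and 8 lower, which is 15.2%, beside 13.7% of all genes (6.81% higher and 6.88% lower). At 2 weeks 1 was higher and 13 lower, which is 21.2%, beside 15.9% of all genes (7.95% higher and 7.92% lower). At 4 and 8 weeks 0 passed by limma, edgeR or DESeq2, beside 0.124%, 2.52% and 5.22% of all genes at 4 weeks. In limma 7 and 0 had an unadjusted p under 0.05 at these weeks, as did 2058 and 397 of the 12937 genes tested. Over all time points 6 were higher and 22 lower, which is 42.4%, beside 40.1% of all genes (22.4% higher and 17.7% lower). Of the 25 partners of cullin ligases among them, 3 fell at 1 week (12%, beside 6.88% of all genes), 9 at 2 weeks (36%, beside 7.92%) and 13 over all time points (52%, beside 17.7%), with 0, 1 and 1 higher. Their median log2FC at 2 weeks was -0.31, beside 0.02 for the 75 genes and 0.06 for all genes.

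Some of the 9 partners that fell at 2 weeks are described here, with their known roles as background. The list was chosen with earlier results of these data known, so its shares do not test the cullin cycle as a whole. SKP1, which joins F-box proteins to CUL1, had a log2FC of -0.48 (SE 0.17, adjusted p = 0.0468). NEDD8, the modifier that switches cullins on, stood at 40.8 ± 6.8 CPM in repair and 54.8 ± 5.7 CPM in control (SD, n = 5 and 5) with no overlap (log2FC -0.44, SE 0.12, adjusted p = 0.0193), and NAE1, a subunit of its activating enzyme, at log2FC -0.40 (adjusted p = 0.0480). Among subunits of the COP9 signalosome, which takes NEDD8 off again, COPS3 fell by 0.43, COPS4 by 0.58 and COPS5, the catalytic one, by 0.57 on the log2 scale (adjusted p = 0.0326, 0.0336 and 0.0315). The adaptor KEAP1, which holds NRF2 at CUL3, stood at 80.2 ± 23 against 122 ± 23 CPM (log2FC -0.63, adjusted p = 0.0193). WSB1, a SOCS-box adaptor, was the one riser, at log2FC 0.80 (adjusted p = 0.0427). At 1 week the falls were DCUN1D2, a helper of NEDD8 attachment, at 94.4 ± 43 against 234 ± 50 CPM (SD, n = 4 and 4; log2FC -1.41, SE 0.43, adjusted p = 0.0317), ZYG11B (-0.99) and COPS4 (-0.76).

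Without the repair library of rabbit 59, 0 of the 25 partners passed at 2 weeks (2.65% of all genes). Their median log2FC moved from -0.31 to -0.23, and 18 of 25, instead of 20, lay below 0. In the fit with that library, 54% of all genes lay above 0 at 2 weeks. Over all time points and without it, 12 partners fell, beside 17.4% of all genes. With all 34 libraries 0 partners passed at 2 weeks (3.12% of all genes) and 8 fell over all time points (10.4% of all genes lower), and the median log2FC at 2 weeks was -0.31. The block by rabbit gave 11 lower at 2 weeks and 13 over all time points, beside 12.4% and 19.9% of all genes.

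Of 32 other ligases 2 were higher (6.25%) and 4 lower (12.5%) at 1 week, beside 6.81% and 6.88% of all genes. MDM4, the p53 regulator, fell from 21.8 ± 0.66 CPM in control to 13.8 ± 0.33 CPM in repair (SD, n = 4 and 4; log2FC -0.66, SE 0.16, adjusted p = 0.0106), and the mitochondrial ligase MUL1 from 29.5 ± 3.7 to 17.9 ± 3.7 CPM (log2FC -0.74, SE 0.19, adjusted p = 0.0131). WWP1, a NEDD4-family ligase, and CGRRF1 fell as well, and PELI2 (log2FC 1.31, adjusted p = 0.0266) and DTX2 (0.66, adjusted p = 0.00952) rose. At 2 weeks MUL1 (-0.69) and KCMF1 (-0.61) fell, which is 6.25% of these ligases beside 7.92% of all genes. Of 9 further deubiquitinating or ubiquitin-binding genes UBQLN1, a shuttle to the proteasome, fell at 1 week (-0.41, SE 0.13, adjusted p = 0.0411) and at 2 weeks (-0.58, SE 0.11, adjusted p = 0.00522), and STAMBP at 2 weeks (-0.39, adjusted p = 0.0236). With 9 genes these calls are 11.1% and 22.2% lower at 1 and 2 weeks, beside 6.88% and 7.92% of all genes.

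**Figure D5:**
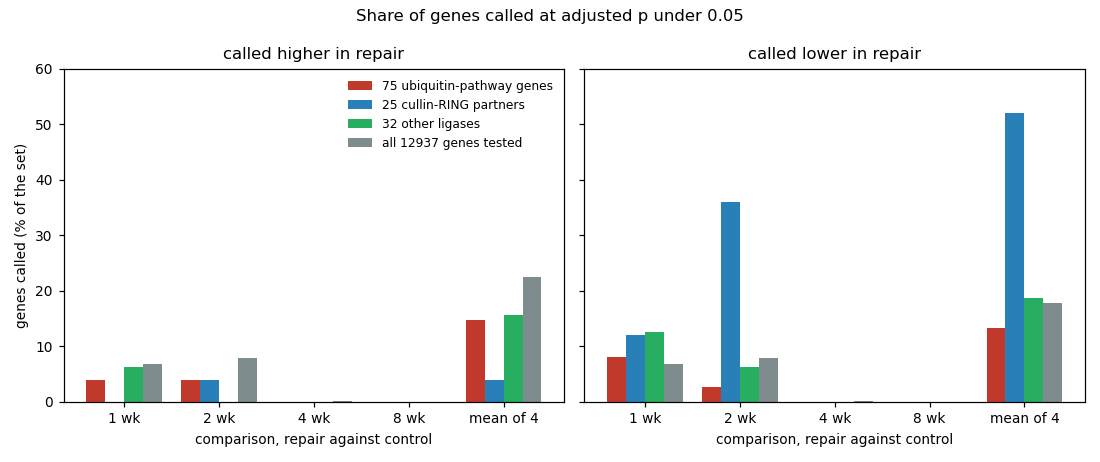
Percent of genes called higher (left) or lower (right) in repair at adjusted p under 0.05 in each comparison, for the 75 genes, 25 partners of cullin ligases, 32 other ligases and all genes tested (bars from 0). The partners reach 36% lower at 2 weeks and 52% lower for the mean of the 4 time points, where all genes stand at 7.92% and 17.7%.

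Repair libraries of a group varied more among themselves than control libraries. Over the 75 genes the median SD of log2(CPM + 0.5) within groups was 0.321 in repair and 0.224 in control, and over all genes it was 0.382 and 0.276. The SD was larger in repair for 53 of the 75 genes (70.7%), beside 75.6% of all genes. By week, the median SD over the 75 genes in repair and control was 0.193 and 0.151 (1 week), 0.386 and 0.226 (2 weeks), 0.221 and 0.254 (4 weeks) and 0.207 and 0.139 (8 weeks). Control was the more variable side at 4 weeks alone, for the 75 genes as for all genes (0.287 and 0.320).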

How the data were processed

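RNA-seq libraries of 34 supraspinatus samples (left repair, right control, 17 rabbits) were read from a table of expected counts per gene that the authors deposited after aligning reads to the rabbit genome OryCun2.0 with STAR and counting with RSEM. These expected counts were not scaled, and 8.35% of values were not whole. Groups were taken from the labels, whose code holds the side and a number of weeks. Symbols are those of human orthologs in the study's supplementary tables, which were shortened and cover 3310 genes. The genes and lists were chosen with earlier results of these data known.

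After removal of the left library of rabbit 3, genes were kept where any of the 33 libraries exceeded a CPM of 1. Normalization used TMM factors, and limma-voom fitted 1 coefficient for each combination of side and week (versions: R 4.3.3, limma 3.58.1, edgeR 4.0.16). Repair was contrasted with control within each week, and the mean and the differences of these contrasts were tested too. Adjusted p-values are Benjamini-Hochberg over 12937 genes and a gene was called under 0.05. Standard errors are those of the moderated fit. CPM carries the TMM scaling. Counts were rounded for edgeR quasi-likelihood and DESeq2 1.42.0. The main fit was also run on counts simulated independently for each library. These held no correlation within a rabbit and no library far from its group, so they do not check the choices that moved the counts here.

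Left and right libraries of a rabbit come from the same animal, and their residuals correlated at 0.0252 to 0.434 (median 0.257, 16 pairs), so the block by rabbit was fitted as an alternative; an estimated correlation (0.174), sample quality weights, median-ratio size factors, no filter, a filter at 5 libraries, 1 time point alone and each library left out were others. Of the genes called, the 10 largest rises and 10 largest falls at 1 week, 2 weeks and over all time points were named, at 4 and 8 weeks the 3 of lowest p, together with TRIM32, CUL1, UBE2L3, RNF213 and USP7 for their known roles. MARCHF5, the 11th rise over all time points, and the genes named from spread, from the block or from the other lists were chosen after their values were seen. Tables were made with pandas 2.3.3 and figures with matplotlib 3.10.9 in Python 3.11.15.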

Additional observations from a re-analysis of the deposited data

Results flagged for a closer look

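In 196 groups of 4 or 5 libraries (28 named genes), 13 libraries stood far from the rest of their group by the ratio of the gap to the nearest library over the range of the group. Chance alone gives about 1 such library in 20 groups.

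In repair libraries, CUL1 stood at 136.6 CPM in rabbit 5 at 1 week (others 91.7 to 96.17), RNF111 at 10.1 CPM in rabbit 60 at 2 weeks (others 14.65 to 16.48), RNF115 at 33.17 CPM in rabbit 63 at 4 weeks (others 16.95 to 19.56) and USP36 at 11.84 CPM in rabbit 68 at 4 weeks (others 20.25 to 21.46). In control libraries of 1 week, RNF169 stood at 3.999 CPM in rabbit 8 (others 5.267 to 5.487) and RNF213 at 8.693 CPM in rabbit 5 (others 4.227 to 4.768). In those of 2 weeks, KLHL13 stood at 15.06 CPM in rabbit 59 (others 3.594 to 6.419) and KLHL20 at 33.99 CPM in rabbit 64 (others 26.54 to 27.39). At 4 weeks the controls FBXW10 in rabbit 63 (1.529 CPM, others 1.009 to 1.043) and KLHL20 in rabbit 67 (20.37 CPM, others 28.52 to 29.92) stood apart. At 8 weeks RNF213 in the control of rabbit 3 (3.781 CPM, others 5.428 to 5.654), RNF31 in that of rabbit 4 (44.23 CPM, others 47.65 to 47.85) and TRIM26 in that of rabbit 1 (6.522 CPM, others 5.135 to 5.257) did. No interaction with time passed the test for any of these genes.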

How the results depend on the processing

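Each library left out in turn gave 2 to 11 genes called at 1 week (9 with all), 1 to 14 at 2 weeks (5), 0 to 1 at 4 weeks (0), 0 at 8 weeks and 19 to 26 over all time points (21). At 1 week the count was 0 with all 34 libraries, 18 with the rabbit as a block, 16 with the estimated rabbit correlation and 19 with sample quality weights, where 2.28%, 26.3%, 22.4% and 32.3% of all genes passed. At 2 weeks it was 1 with all 34 libraries (3.12% of all genes), 10 by edgeR (28.7%), 13 by DESeq2 (31.2%), 12 with the block (31.6%), 11 with the rabbit correlation (25.2%), 2 with quality weights (6.31%) and 0 with that time point fitted alone (0%). At 4 weeks DESeq2 and quality weights gave 1 gene each, CUL9, where 5.22% and 7.98% of all genes passed. Over all time points 11 genes of the 44 from the ortholog table alone passed, an alternative chosen after seeing the data. The cause of these shifts was not tested. Of 40 results for single named genes under 1207 alternatives, 1107 kept direction and side of the threshold, 96 lost the call, 3 gained it and 1 reversed: RNF115 at 8 weeks, not past the test, had a log2FC of -0.01 with all 34 libraries. Putting back the left library of rabbit 3 lost 19 of 34 calls of named genes, and the block lost 1 (TRIM26). Depth was lower at 2 and 4 weeks than at 1 and 8 weeks, and with 3 to 5 libraries a side, a gene that did not pass is not shown to be unchanged.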
